A study of Homo sapiens with 22 samples.

Results

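Transcripts of 10 genes for secreted proteins that are best known as products of the fetal or adult liver were measured in Caco-2 cells: AFP, FGA, FGB, FGG, SERPINA1, TTR, AHSG, APOH, AMBP and RBP4. They were chosen by name from the 61487 genes of the count table, with their Ensembl identifiers matched to gene symbols, and all 10 were among the 20373 genes that passed the filter on low counts. Caco-2 is a human cell line from a colorectal adenocarcinoma and was used here undifferentiated and with its unmodified genotype. The cells of every group grew for 48 h in a medium with 10% fetal bovine serum and an antibiotic-antimycotic supplement, after which 1 of 4 treatments was added for a further 48 h, making up 10% of the medium. The PBS group (n = 4) received the vehicle. The FWctl group (n = 7) received faecal water, an aqueous extract of faeces, from untreated mice, and the FWatb group (n = 7) received faecal water from mice given antibiotics. The ATB group (n = 4) received the antibiotics themselves, as a cocktail of 1 g/L neomycin, 0.5 g/L vancomycin and 0.25 g/L meropenem. The comparisons ask how material from a normal and from an antibiotic-depleted microbiota acts on these cells, with the vehicle and the drugs alone as controls.

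Hepatocytes make most plasma proteins from a small set of genes that are among the most active of the genome in that cell type, driven by transcription factors of the HNF1, HNF4, FOXA and C/EBP families. Alpha-fetoprotein is switched on in yolk sac, fetal liver and fetal gut and is silenced around birth, and it can reappear in tumours. Several of the adult products are acute-phase proteins: interleukin-6 raises the fibrinogens and alpha-1-antitrypsin in liver, whereas albumin, transthyretin, fetuin-A and retinol-binding protein are usually lowered. Intestinal cells share several of the same transcription factors, and undifferentiated Caco-2 cells have long been known to make apolipoproteins and other liver-type proteins.

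The 21 libraries compared held 7118302 to 18726967 counts, with a median of 10596342. FWctl replicate 1 lay apart from the other FWctl libraries in a principal component analysis of the 500 genes that varied most (9.12 on the first component, against 36.14 to 40.95 in the other 6 and -19.07 to -13.4 in the other groups). The study's methods leave out 1 FWctl library as an outlier, so this library entered no mean or test and its values are given apart. Ribosomal DNA transcripts divided the libraries into 2 sets. Their share of all counts was 0.0163% to 0.0805% in 8 libraries (PBS replicates 3 and 4, FWctl replicates 1, 2 and 3, ATB replicates 1, 3 and 4) and 1.87% to 8.19% in the other 14, which included all 7 FWatb libraries. Values within these rRNA-poor and rRNA-rich sets are given beside the results they touch. Of 14 intestinal epithelial markers, 13 passed the filter, and CDX1 was near 0. Of 14 hepatocyte markers, 8 passed the filter and 7 had at most 10 counts in each of the 21 libraries, among them the liver enzymes and transporters CYP7A1, CYP8B1, TAT, G6PC1, SLCO1B1 and SLCO1B3. Other hepatocyte markers stood far higher, with mean normalized counts in PBS of 1945 for CPS1, 776 for ASGR2, 770 for ALB and 615 for ASGR1. Of the 8 tested, 6 fell in FWctl against PBS and 2 did not pass the test (edgeR adjusted p under 0.05). Of all genes, 22.1% fell there. The summed level of the hepatocyte markers per kilobase of exon was 838 to 1012 in PBS, 321 to 492 in FWctl, 656 to 824 in FWatb and 885 to 1245 in ATB. In the same order, the intestinal markers summed to 10640 to 12380, 12190 to 14120, 10740 to 13590 and 11240 to 12000, and 5 leukocyte markers, of which 3 had at most 10 counts in every library, to 52.5 to 75.4, 22.7 to 30.8, 60.5 to 99.99 and 55.1 to 70.5. The summed levels of 7 fibroblast and of 4 endothelial markers overlapped between PBS and FWctl, but single markers moved in both directions (edgeR adjusted p under 0.05). Of 5 fibroblast markers tested, COL1A1, PDGFRA and PDGFRB fell in FWctl against PBS (log2 fold changes -2.86, -2.63 and -1.96). LUM rose (mean normalized count 151 in PBS, 212.8 in FWctl) and COL3A1 did not pass the test. Of 2 endothelial markers tested, PECAM1 fell (62.55 to 29.97) and VWF rose (10.79 to 43.09). The part of other cell types in the results was not tested. In bulk RNA of this kind, fewer cells that express a gene and less of its RNA per cell cannot be told apart.

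In vehicle-treated cells, 8 of the 10 genes were among the more abundant transcripts. Ranked by normalized count per kilobase of exon among 13726 protein-coding genes, SERPINA1 stood at place 40, AHSG at 88, RBP4 at 129, AFP at 237, APOH at 255, FGG at 335, TTR at 514 and FGA at 1221. FGB, at place 4265, and AMBP, at 10853, were far lower. The 10 genes together took 0.299% ± 0.0251 of all counts in PBS (SD, n = 4), 0.168% ± 0.0170 in FWctl (n = 6), 0.247% ± 0.0188 in FWatb (n = 7) and 0.347% ± 0.0463 in ATB (n = 4).

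The 10 genes did not respond as a block. In FWctl against PBS, 6 of 10 fell (AFP, FGA, FGG, SERPINA1, AHSG and APOH), 2 rose (FGB and AMBP), and TTR and RBP4 did not pass the test. Across all genes tested 22.1% fell and 24.3% rose in the same comparison, a change here being an adjusted p under 0.05 in edgeR's quasi-likelihood test. The median log2 fold change was -0.66 over the 10 genes and 0.018 over all genes. The FWctl and PBS libraries did not overlap for 7 of the 10, and for 33.7% of all genes. In FWatb against PBS, 7 of 10 fell (AFP, FGA, FGB, FGG, TTR, AHSG and APOH) and the other 3 did not pass the test, where 3.95% of all genes fell and 6.04% rose. The median log2 fold change was -0.50 over the 10 genes, and the 2 groups did not overlap for 4 of them, and for 6.86% of all genes. In this comparison 4 genes were still called among rRNA-rich libraries alone (AFP, FGB, FGG and APOH). In ATB against PBS, 3 of 10 rose (FGA, FGG and RBP4) and the other 7 did not pass the test, where 0.255% of all genes rose and 0.0295% fell. With FWctl replicate 1 added to the fit none of these 3 was called (log2 fold changes 0.77, 0.73 and 0.34 for FGA, FGG and RBP4). All 3 comparisons use the same PBS libraries.

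The direct comparison of the 2 faecal waters, for which a log2 fold change beyond 1 in either direction was also required, called 4 of the 10 genes. AFP and FGA were higher in FWatb than in FWctl, and FGB and AMBP were lower. Of all genes, 6.12% were called higher and 6.6% lower. Without the fold change threshold, 8 of 10 passed, 5 of them higher (AFP, FGA, FGG, SERPINA1 and APOH) and 3 lower (FGB, AMBP and RBP4), where 23.4% of all genes were higher and 25.4% lower. The faecal waters that carry the same replicate number were taken as those of 1 mouse before and under antibiotics, which gives 6 pairs, and with the replicate number as a block the same 4 genes were called. For a gene whose 2 faecal water groups do not overlap, a count of 6 of 6 pairs follows from that alone. Within each faecal water group the libraries are biological replicates in that each received the faecal water of a different mouse. The main test took the libraries of the 2 groups as independent, without the pairs. For the PBS and ATB libraries the sources used here do not say that they came from separate cultures, so their spread may be partly technical.

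**Figure D1:**
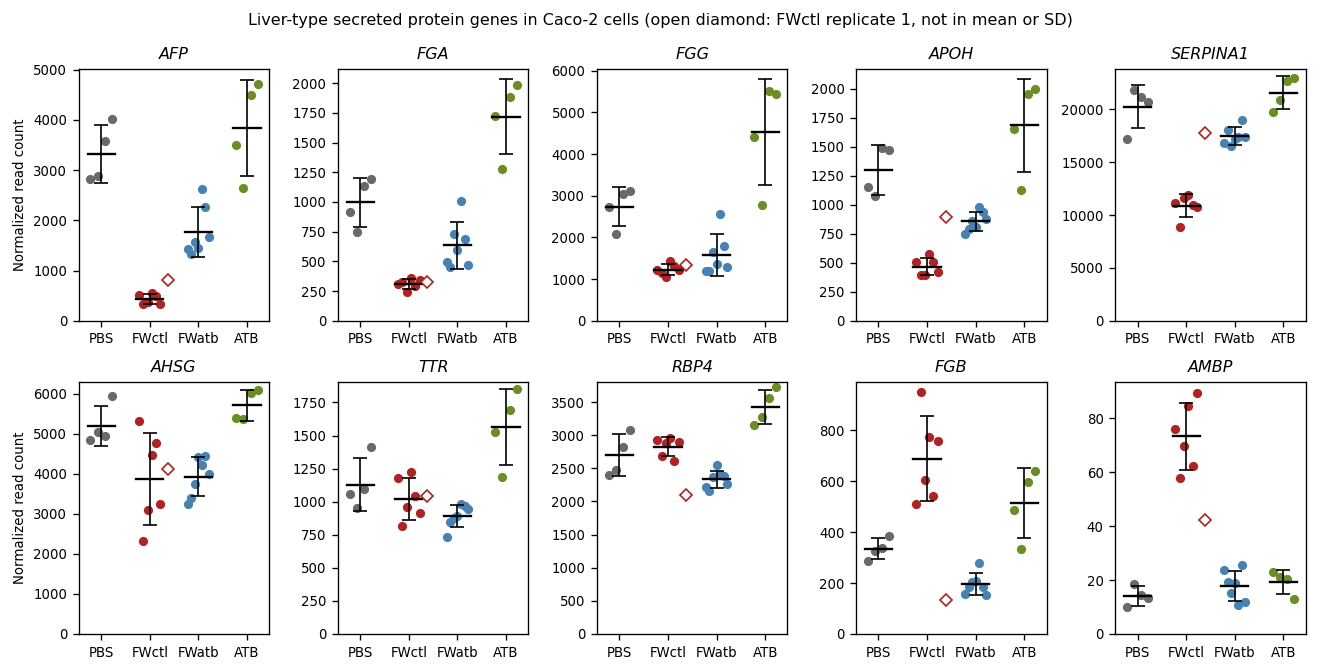
Normalized read counts (vertical axis, starting at 0) of the 10 genes in each library of the 4 groups, with 1 panel per gene; points are libraries, the long bar is the mean, the error bar is the SD (n = 4, 6, 7 and 4) and the open diamond is FWctl replicate 1. AFP, FGA, FGG, APOH and SERPINA1 are lowest in FWctl, whereas FGB and AMBP are highest there.

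**Figure D2:**
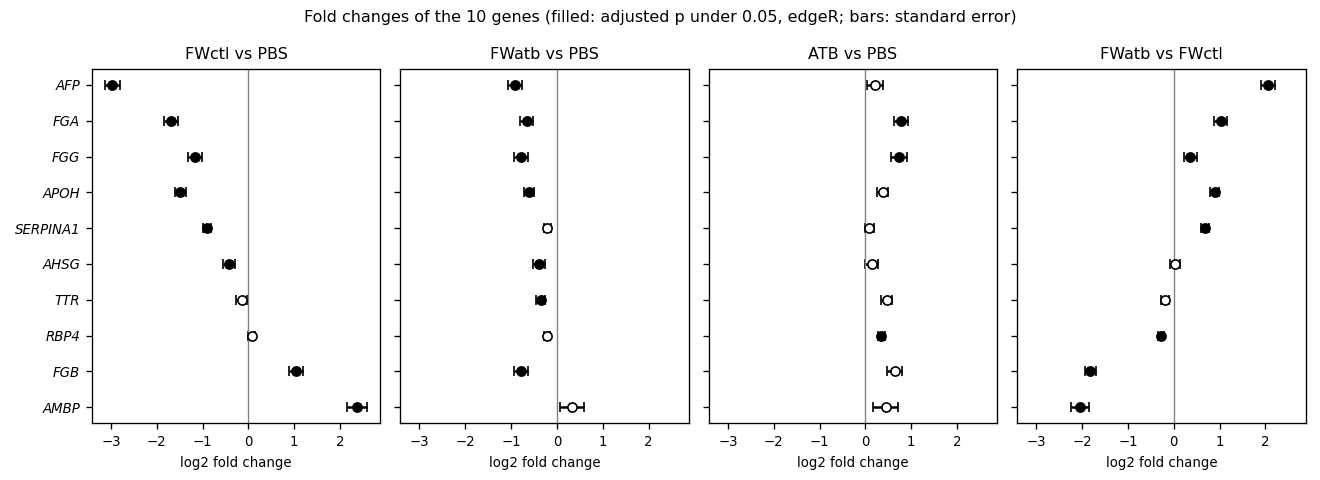
Log2 fold changes (horizontal axis) of the 10 genes in the 4 comparisons, with the standard error as bars; filled points have an adjusted p under 0.05 in edgeR's quasi-likelihood test and open points do not. In FWctl against PBS the values run from -2.97 for AFP to 2.37 for AMBP, while in ATB against PBS they run from 0.09 to 0.78.

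AFP (ENSG00000081051, GRCh38 chr4:73431138-73456174, plus strand) encodes alpha-fetoprotein, the main plasma protein of the fetus and a relative of albumin. Its normalized count was 2815, 2891, 3588 and 4015 in the 4 PBS libraries. In the 6 FWctl libraries it ran from 325 to 562 with a median of 426, in the 7 FWatb libraries from 1323 to 2631 with a median of 1566, and in the 4 ATB libraries it was 3491, 2653, 4490 and 4723. PBS, FWctl and FWatb therefore occupied 3 separate ranges, and ATB overlapped with PBS. FWctl replicate 1, at 816, lay between the FWctl and FWatb ranges. AFP fell 7.82-fold in FWctl against PBS (log2 fold change -2.97 ± 0.16 SE, edgeR adjusted p = 6.23e-19), by -3.24 in rRNA-poor and -2.73 in rRNA-rich libraries alone. It also fell in FWatb against PBS, by less (-0.92 ± 0.15, adjusted p = 3.04e-05, and -0.69 in rRNA-rich libraries). Between the faecal waters AFP was 4.14-fold higher in FWatb (2.05 ± 0.15, adjusted p = 2.91e-15), in 6 of 6 pairs. The antibiotics alone gave 0.21 ± 0.17 (adjusted p = 0.837), and its sign turned to -0.11 in rRNA-rich libraries.

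The 250 bases before the transcription start of AFP are shown because they hold matches to 2 of the 8 short motifs searched, both for factors of liver genes. The sequence is that of RefSeq on GRCh38.p14 at chr4:73435971-73436220, plus strand, written 5′ to 3′, and RefSeq places this start inside the longer gene of the GENCODE annotation. Capitals mark a match to the C/EBP motif (TTGCNNAA) and, nearer the start, a match to the HNF1 motif (GTTAATNAT).
AFP: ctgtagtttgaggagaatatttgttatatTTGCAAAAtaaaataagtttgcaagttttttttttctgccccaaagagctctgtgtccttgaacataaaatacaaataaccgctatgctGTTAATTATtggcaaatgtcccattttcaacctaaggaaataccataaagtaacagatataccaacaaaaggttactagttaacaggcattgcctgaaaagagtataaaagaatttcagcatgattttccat

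FGA, FGB and FGG encode the Aα, Bβ and γ chains of fibrinogen, the clotting protein, which is built from equal numbers of the 3 chains. The genes lie together on chromosome 4 of GRCh38 within 49957 bases: FGB (ENSG00000171564, chr4:154563011-154572807) on the plus strand, then FGA (ENSG00000171560, chr4:154583126-154590742) and FGG (ENSG00000171557, chr4:154604134-154612967) on the minus strand. The gaps between them are 10318 and 13391 bases. Liver usually raises the 3 genes together, and in FWctl they parted.

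FGA was counted at 915, 748, 1137 and 1196 in PBS, at 241 to 360 (median 317) in FWctl, at 456 to 1012 (median 595) in FWatb and at 1725, 1273, 1882 and 1986 in ATB. All FWctl libraries lay below all others, and all ATB libraries lay above all PBS libraries. FWctl replicate 1, at 330, lay within the FWctl range. FGA fell 3.22-fold in FWctl against PBS (log2 fold change -1.69 ± 0.15, adjusted p = 1.85e-12), by -1.93 in rRNA-poor and -1.44 in rRNA-rich libraries. It fell in FWatb against PBS (-0.66 ± 0.14, adjusted p = 0.00121), a call that was lost in rRNA-rich libraries (-0.39, adjusted p = 0.178). FGA was 2.03-fold higher in FWatb than in FWctl (1.02 ± 0.14, adjusted p = 4.36e-08), in 6 of 6 pairs. This value sat at the fold change threshold: it was 0.99 without FWctl replicate 4 and 0.89 without FWatb replicate 6. FGA rose in ATB against PBS (0.78 ± 0.16, adjusted p = 0.0173). Leaving out PBS replicate 1 or 2 or ATB replicate 3 or 4 took that adjusted p above 0.05, to between 0.0965 and 0.23, whereas within rRNA-poor libraries it was 0.000356 (log2 fold change 0.66). Within rRNA-rich libraries, with 1 ATB library, the log2 fold change was 0.61.

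FGG stood at 2720, 2073, 3029 and 3107 in PBS, at 1054 to 1431 (median 1219) in FWctl, at 1182 to 2568 (median 1371) in FWatb and at 4410, 2774, 5502 and 5443 in ATB. Per kilobase of exon it had the highest level of the 3 chains in each group, and FWctl and FWatb overlapped. FWctl replicate 1, at 1329, lay within both of these ranges. FGG fell 2.23-fold in FWctl against PBS (log2 fold change -1.16 ± 0.15, adjusted p = 2.91e-08; -1.43 and -0.94 in rRNA-poor and rRNA-rich libraries). It fell in FWatb against PBS (-0.79 ± 0.15, adjusted p = 0.000243). It was higher in FWatb than in FWctl by a small amount (0.36 ± 0.14, adjusted p = 0.0246), below the fold change threshold and in 5 of 6 pairs. It rose in ATB against PBS (0.73 ± 0.17, adjusted p = 0.0377), while DESeq2 gave an adjusted p of 0.0868. Within rRNA-poor libraries the value was 0.72 (adjusted p = 0.000368), and within rRNA-rich ones, with 1 ATB library, it was 0.21. Leaving out any 1 of PBS replicates 1, 2 and 3 or of ATB replicates 1, 3 and 4 took the adjusted p to between 0.0811 and 0.367.

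FGB went the other way. It was counted at 288, 328, 339 and 386 in PBS, at 510 to 950 (median 681) in FWctl, at 154 to 278 (median 186) in FWatb and at 488, 335, 597 and 642 in ATB. FWctl lay above PBS and FWatb below it, with no overlap in either case, and FWctl replicate 1, at 135, was lower than every other library. FGB rose 2.05-fold in FWctl against PBS (log2 fold change 1.04 ± 0.15, adjusted p = 1.41e-07), by 0.96 in rRNA-poor and 1.12 in rRNA-rich libraries, and with FWctl replicate 1 included the value was 0.82. It fell in FWatb against PBS (-0.78 ± 0.15, adjusted p = 0.000407), a call that was lost with FWctl replicate 1 in the fit (-0.79, adjusted p = 0.0592). FGB was 3.53-fold lower in FWatb than in FWctl (-1.82 ± 0.13, adjusted p = 4.36e-15), in 6 of 6 pairs. ATB against PBS gave 0.64 ± 0.16 (adjusted p = 0.0647).

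The ratio of FGA to FGB counts separates the FWctl group from the rest without any scaling between libraries. It was 3.17, 2.28, 3.35 and 3.10 in PBS, 0.345 to 0.603 (median 0.457) in FWctl, 2.46 to 3.69 (median 3.16) in FWatb and 3.10 to 3.80 in ATB. FWctl replicate 1, at 2.44, had a ratio inside the PBS range. FGG over FGB was divided likewise, with 6.32 to 9.43 in PBS, 1.20 to 2.43 in FWctl, 6.39 to 9.67 in FWatb and 8.28 to 9.22 in ATB. FGG over FGA moved less, from 2.60 to 2.97 in PBS to 3.47 to 4.45 in FWctl, 2.26 to 2.75 in FWatb and 2.18 to 2.92 in ATB. Per kilobase of exon, FGB made up 7.15% ± 1.22 of the 3 chains' transcripts in PBS (SD, n = 4), 27.1% ± 5.00 in FWctl (n = 6), 7.12% ± 1.02 in FWatb (n = 7) and 6.49% ± 0.220 in ATB (n = 4).

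**Figure D3:**
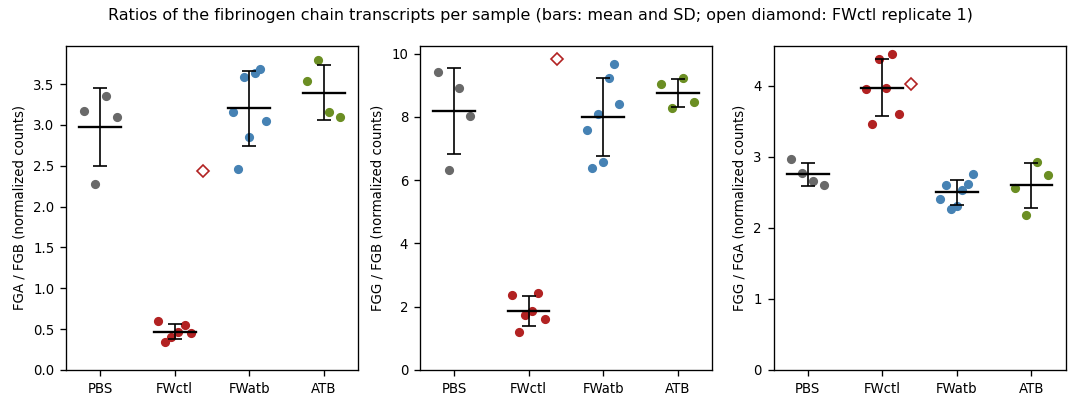
Ratios of the normalized counts of the fibrinogen chains (vertical axes, starting at 0) in each library, with the mean and SD per group and FWctl replicate 1 as an open diamond. The 6 FWctl libraries lie at an FGA to FGB ratio of 0.345 to 0.603 and all others at 2.28 or above.

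The 250 bases before the starts of the 3 fibrinogen genes are shown because these neighbours moved in opposite directions. They are RefSeq sequences on GRCh38.p14, written 5′ to 3′ on the gene's own strand: FGA at chr4:154590743-154590992 (minus), FGB at chr4:154562761-154563010 (plus) and FGG at chr4:154612657-154612906 (minus). Capitals mark, from left to right, matches to the STAT (TTCNNNGAA), C/EBP (TTGCNNAA) and HNF1 (GTTAATNAT) motifs in FGA, to the interleukin-6 response element (CTGGGAA) and the C/EBP motif in FGB, and to the interleukin-6 response element in FGG.
FGA: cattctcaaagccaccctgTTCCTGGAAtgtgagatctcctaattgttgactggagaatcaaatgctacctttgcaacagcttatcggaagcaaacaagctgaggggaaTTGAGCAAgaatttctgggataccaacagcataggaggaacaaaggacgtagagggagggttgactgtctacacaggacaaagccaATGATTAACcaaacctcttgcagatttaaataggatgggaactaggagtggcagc
FGB: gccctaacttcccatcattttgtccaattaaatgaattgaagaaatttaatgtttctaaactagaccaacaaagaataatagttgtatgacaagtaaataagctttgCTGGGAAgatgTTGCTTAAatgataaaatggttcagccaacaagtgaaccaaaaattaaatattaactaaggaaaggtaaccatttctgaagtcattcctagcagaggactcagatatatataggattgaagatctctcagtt
FGG: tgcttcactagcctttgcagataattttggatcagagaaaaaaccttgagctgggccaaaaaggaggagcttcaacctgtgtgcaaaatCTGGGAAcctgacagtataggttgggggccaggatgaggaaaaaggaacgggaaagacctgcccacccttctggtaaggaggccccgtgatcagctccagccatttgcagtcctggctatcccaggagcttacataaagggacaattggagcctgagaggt

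These matches were read on both strands and share no base with each other. Over 34796 promoter windows of 300 bases, which reach 50 bases past the start, the HNF1 motif matched in 0.799%, and it matched in AFP and FGA among the 9 genes with a window (TTR has none in the table). C/EBP matched in 10.5% of windows and in AFP, FGA, FGB and AHSG, the interleukin-6 response element in 10.8% and in FGB, FGG and AHSG, and STAT in 7.67% and in FGA and RBP4. HNF4 (CAAAGTCCA) matched in 0.385% and in AHSG, and AP-1 (TGANTCA) in 7.73% and in APOH. FOXA (TGTTTAC, 3.42%) and NF-kB (GGGNNTTCC, 6.55%) matched in none of the 9. For each of the 9 genes only the window of the RefSeq start nearest to its GENCODE 5′ end was read. SERPINA1 and AMBP held none of the 8 motifs in that window. Any other starts of these genes were not searched, so motifs there would be missed. A match is a run of letters and was not tested as a binding site.

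SERPINA1 (ENSG00000197249, chr14:94376747-94390693, minus strand) encodes alpha-1-antitrypsin, which inhibits neutrophil elastase, and it had the highest level per kilobase of the 10 genes in each group. Its normalized count was 17250, 21820, 21200 and 20740 in PBS, 8883 to 11900 (median 11050) in FWctl, 16560 to 18980 (median 17360) in FWatb and 19740, 20880, 22740 and 22990 in ATB. All FWctl libraries lay below all others, and FWctl replicate 1, at 17750, lay within the FWatb range. SERPINA1 fell 1.86-fold in FWctl against PBS (log2 fold change -0.90 ± 0.09, adjusted p = 1.71e-11), by -1.11 in rRNA-poor and -0.79 in rRNA-rich libraries. FWatb against PBS gave -0.21 ± 0.08 (adjusted p = 0.111). Between the faecal waters it was 1.61-fold higher in FWatb (0.68 ± 0.08, adjusted p = 5.72e-10), in 6 of 6 pairs, which is below the fold change threshold. ATB against PBS gave 0.09 ± 0.10 (adjusted p = 0.900).

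APOH (ENSG00000091583, chr17:66212033-66256525, minus strand) encodes beta-2-glycoprotein I, a plasma protein that binds anionic phospholipids. It was counted at 1150, 1072, 1485 and 1472 in PBS, at 392 to 574 (median 462) in FWctl, at 745 to 977 (median 858) in FWatb and at 1649, 1123, 1955 and 1999 in ATB. As with AFP, PBS, FWctl and FWatb took 3 ranges that did not overlap. APOH fell 2.80-fold in FWctl against PBS (log2 fold change -1.49 ± 0.12, adjusted p = 3.41e-14; -1.77 and -1.24 in rRNA-poor and rRNA-rich libraries). It fell in FWatb against PBS (-0.60 ± 0.11, adjusted p = 0.000185), and it was 1.85-fold higher in FWatb than in FWctl (0.89 ± 0.10, adjusted p = 2.11e-09), in 6 of 6 pairs but below the fold change threshold. FWctl replicate 1, at 893, lay within the FWatb range.

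AHSG (ENSG00000145192, chr3:186613060-186621318, plus strand) encodes fetuin-A, which keeps calcium phosphate from precipitating in plasma. Its normalized count was 4828 to 5943 in PBS, 2329 to 5312 in FWctl, 3232 to 4451 in FWatb and 5375 to 6076 in ATB. The FWctl libraries were spread more widely than for any other of the 10 genes (coefficient of variation 29.7%, n = 6) and reached into the PBS range. FWctl replicate 1, at 4112, lay within the FWctl range. AHSG fell in FWctl against PBS (log2 fold change -0.43 ± 0.13, adjusted p = 0.00590) and in FWatb against PBS (-0.40 ± 0.13, adjusted p = 0.0308), and the second call held in only 10 of 22 alternatives. It was lost with DESeq2 (adjusted p = 0.0701), in rRNA-rich libraries (-0.32, adjusted p = 0.124) and when any 1 of PBS replicates 2, 3 and 4 or of FWatb replicates 1, 2 and 3 was left out. Between the faecal waters the value was 0.02 ± 0.11 (adjusted p = 0.894), with 3 pairs higher and 3 lower.

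TTR (ENSG00000118271, chr18:31557009-31598833, plus strand) and RBP4 (ENSG00000138207, chr10:93591687-93601744, minus strand) encode 2 proteins that travel together in blood: transthyretin carries thyroxine and also binds retinol-binding protein, the product of RBP4, which carries retinol. In FWctl against PBS their fold changes were the smallest of the 10. TTR was counted at 949 to 1413 in PBS, 817 to 1227 in FWctl, 735 to 980 in FWatb and 1185 to 1849 in ATB, and the PBS range overlapped with each of the others. RBP4 was counted at 2399 to 3081 in PBS, 2614 to 2954 in FWctl, 2165 to 2555 in FWatb and 3154 to 3722 in ATB, with all ATB libraries above all PBS libraries. FWctl replicate 1 stood at 1044 for TTR, within the FWctl range, and at 2104 for RBP4, below every other library.

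In FWctl against PBS the log2 fold change was -0.15 ± 0.11 for TTR (adjusted p = 0.261) and 0.07 ± 0.07 for RBP4 (adjusted p = 0.499). Within rRNA-poor libraries TTR passed the test (-0.38, adjusted p = 0.0279), and within rRNA-rich ones its value was 0.04. RBP4 gave -0.12 in the first set and 0.21 in the second. TTR fell in FWatb against PBS (-0.35 ± 0.10, adjusted p = 0.0248), a call lost without PBS replicate 3 or 4 or FWatb replicate 1 or 2 and in rRNA-rich libraries (-0.16, adjusted p = 0.402). RBP4 was lower in FWatb than in FWctl (-0.28 ± 0.06, adjusted p = 0.000358), in 6 of 6 pairs with no overlap. RBP4 rose in ATB against PBS (0.35 ± 0.08, adjusted p = 0.0446), a call lost without any 1 of PBS replicates 1, 2 and 3 or of ATB replicates 1, 3 and 4, with adjusted p up to 0.373. The call was also lost with the library set as a covariate (edgeR adjusted p = 0.0763) and within rRNA-poor libraries (0.22, adjusted p = 0.503). Within rRNA-rich libraries, with 1 ATB library, the value was 0.42.

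AMBP (ENSG00000106927, chr9:114060127-114078328, minus strand) encodes a precursor that is cut into alpha-1-microglobulin, a haem-binding protein, and bikunin, a protease inhibitor. Per kilobase it had the lowest level of the 10 in each group, and in FWctl against PBS it had the largest rise of the 10. Its normalized count was 9.94, 18.7, 14.6 and 13.4 in PBS, 58.1 to 89.6 (median 73.0) in FWctl, 10.7 to 25.6 (median 18.8) in FWatb and 23.0, 21.2, 20.2 and 12.98 in ATB. FWctl lay above the other groups without overlap, and FWctl replicate 1, at 42.4, lay between. AMBP rose 5.18-fold in FWctl against PBS (log2 fold change 2.37 ± 0.22, adjusted p = 8.70e-12), by 2.21 in rRNA-poor and 2.44 in rRNA-rich libraries. It was 4.13-fold lower in FWatb than in FWctl (-2.05 ± 0.19, adjusted p = 3.57e-12), in 6 of 6 pairs. FWatb against PBS gave 0.33 ± 0.26 (adjusted p = 0.505) and ATB against PBS 0.44 ± 0.27 (adjusted p = 0.749). Raw counts behind the PBS values started at 10, so single libraries are imprecise.

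Library set and level moved together within the vehicle group. The 2 rRNA-poor PBS libraries had a higher mean than the 2 rRNA-rich ones for AFP (3802 against 2853), FGA (1166 against 831), FGG (3068 against 2397), APOH (1479 against 1111) and TTR (1254 against 1003), but not for AMBP (14.0 against 14.3). In ATB the single rRNA-rich library, replicate 2, was the lowest of the 4 for AFP, FGA, FGB, FGG, APOH and TTR. In FWctl the 2 sets were close, for example 416 and 435 for AFP and 317 and 309 for FGA. Since all FWatb libraries are rRNA-rich and 3 of 4 ATB libraries are rRNA-poor, the part of the library set in the comparisons of these groups with PBS was not tested beyond the values given.

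Across the 21 libraries, AFP, FGA, FGG, APOH and SERPINA1 varied together, with Pearson's r of log2 normalized counts from 0.74 (FGG with SERPINA1) to 0.97 (AFP with APOH). TTR and RBP4 were related to each other (r = 0.85) and FGB to RBP4 (0.71). AMBP ran against AFP (-0.87), and FGB had little relation to FGA (-0.10) or FGG (0.15). These correlations describe 21 libraries of 4 groups, so they largely restate the differences between groups. Among the 10956 other genes whose normalized counts averaged 50 or more, the one most like AFP was ALB (r = 0.992), which was also the one most like APOH (0.984). SERPINA1 was most like GJB1, a connexin gene (0.981), and FGA most like TXNDC16 (0.968). FGG was most like SI, the gene of the brush-border enzyme sucrase-isomaltase (0.963), followed by KNG1, which encodes kininogen (0.954). FGB was most like ADGRG6 (0.965) and AMBP like RNF187 (0.954). TTR and AHSG shared GPC3, an oncofetal proteoglycan gene, as their nearest match (0.929 and 0.898).

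Other plasma protein genes of liver type also moved in both directions. Of 41 listed, 34 passed the filter. In FWctl against PBS 16 of these fell and 10 rose (median log2 fold change -0.68), where 22.1% of all genes fell and 24.3% rose. Rises and falls named for this list and the next ones are, except where said, the largest among genes whose normalized counts averaged 50 or more. The falls were those of ALB, which encodes albumin (-3.06 ± 0.21, from 770 ± 180 to 94.6 ± 32.1), SERPINF2, which encodes the plasmin inhibitor alpha-2-antiplasmin (-2.23 ± 0.10, from 830 ± 60.9 to 180 ± 31.1), and SERPINA6, which encodes the cortisol carrier (-1.31 ± 0.14). The rises were those of complement C3 (4.0 ± 0.17, from 307 ± 20.5 to 4920 ± 480), the acute-phase gene ORM1, which encodes orosomucoid (2.30 ± 0.16, from 150 ± 21.8 to 750 ± 199), and complement C5 (1.82 ± 0.15), with adjusted p of at most 3.5e-13 for all 3. In FWatb against FWctl 6 of the 34 were higher, led by ALB (2.01 ± 0.20) and SERPINF2 (1.63 ± 0.10), and 8 lower, led by ORM1 (-2.78 ± 0.14), C3 (-2.11 ± 0.12) and ORM2 (-1.95 ± 0.17). Of all genes, 6.12% were called higher there and 6.6% lower. In FWatb against PBS 10 fell and 1 rose, namely C3 (1.89 ± 0.16), a gene named for this comparison after its value was seen. Of all genes, 3.95% fell there and 6.04% rose. ATB against PBS called 1 of 34, SERPINF1 (0.40 ± 0.10, adjusted p = 0.0489), also named after its value was seen. Of all genes, 0.255% rose there and 0.0295% fell. ORM1 and ORM2 are near-identical copies whose reads may be divided uncertainly.

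Of 22 coagulation and fibrinolysis genes, 17 were tested, and 5 rose and 4 fell in FWctl against PBS. Of all genes, 24.3% rose and 22.1% fell in that comparison. Of those averaging 50 or more, the rises were those of TFPI, the tissue factor pathway inhibitor (0.83 ± 0.10), and F2, which encodes prothrombin (0.33 ± 0.11). F10, the gene of factor X, fell most (-1.18 ± 0.09, from 1085 ± 57.7 to 483 ± 38.8), ahead of F7 (-0.33 ± 0.08) and PROS1 (-0.28 ± 0.08). In FWatb against FWctl, 3 of the 17 were higher and 4 lower, TFPI among the latter (-1.04 ± 0.09), where 6.12% of all genes were higher and 6.6% lower.

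Among 24 genes of liver and gut transcription factors, 23 were tested, and 8 fell and 6 rose in FWctl against PBS. Of all genes, 22.1% fell and 24.3% rose in that comparison. RXRA (-0.95 ± 0.10, from 701 ± 77.2 to 365 ± 72.0) and FOXA3 (-0.68 ± 0.14) were among those that fell. GATA6 (1.08 ± 0.09, from 699 ± 31.1 to 1482 ± 96.1), ZBTB20, a known repressor of AFP in liver (1.05 ± 0.18, from 82.2 ± 9.65 to 166 ± 60.4), and CEBPB, a factor of the acute-phase response (0.88 ± 0.09), rose most. In FWatb against FWctl, ZBTB20 (-1.62 ± 0.16) and GATA6 (-1.10 ± 0.07) were lower. ZBTB20 was also lower in FWatb than in PBS (-0.57 ± 0.19, edgeR adjusted p = 0.0488), a comparison in which AFP fell too (-0.92 ± 0.15). A relation of ZBTB20 to AFP was not tested. Of 15 genes of interleukin-6 type signalling, 14 were tested. In FWctl against PBS 3 were higher and 3 lower, beside 24.3% and 22.1% of all genes. The receptor gene IL6R (0.98 ± 0.12) and STAT3 (0.47 ± 0.08) rose, whereas SOCS3 (-0.93 ± 0.16), LIF (-0.67 ± 0.11) and PIM1 (-0.28 ± 0.07) fell. SOCS3 and PIM1 are known targets of STAT3. FWatb against FWctl called SOCS3 higher (1.06 ± 0.15) and IL6R lower (-1.04 ± 0.10).

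Of 18 genes that handle retinol, which RBP4 carries, and retinoic acid, 17 were tested, and 6 fell and 4 rose in FWctl against PBS. Beside the counts of this paragraph, 22.1% of all genes fell and 24.3% rose in that comparison. RBP2, the intestinal cellular retinol-binding protein, fell most (-1.70 ± 0.13, from 1266 ± 165 to 397 ± 97.4) and was higher in FWatb than in FWctl (1.59 ± 0.11). The retinoic acid-binding genes CRABP2 (-1.05 ± 0.12) and CRABP1 (-0.88 ± 0.11) also fell, and the retinol and retinal enzymes DHRS3 (0.46 ± 0.08) and RDH10 (0.41 ± 0.08) rose. Of 12 oncofetal genes other than AFP, 10 were tested, with 5 lower and 1 higher. PEG10 (-0.75 ± 0.08), SALL4 (-0.65 ± 0.09) and IGF2BP3 (-0.44 ± 0.07) fell and IGF2BP1 rose (0.33 ± 0.09). Of 21 genes of the secretory route from the endoplasmic reticulum to the Golgi, 10 rose and 5 fell in FWctl against PBS. MIA2, an export factor of the endoplasmic reticulum (0.83 ± 0.08), the lectin chaperone CANX (0.65 ± 0.08) and SEC24C (0.57 ± 0.08) rose most, while CALR, the soluble counterpart of CANX, fell (-0.69 ± 0.08), as did SEC24B (-0.39 ± 0.09) and SEC23A (-0.37 ± 0.07). MIA2 was lower in FWatb than in FWctl (-1.12 ± 0.07).

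Of the listed neighbours of the 10 genes on the chromosome, 19 stood in none of the other lists, and 14 of these were tested. In FWctl against PBS 5 rose and 4 fell, where 24.3% of all genes rose and 22.1% fell. Neighbours from other lists, such as ALB, AFM, ORM1 and ORM2, are given below but are outside this count. Within the albumin cluster, ALB (-3.06 ± 0.21), AFP (-2.97 ± 0.16) and AFM (-1.59 ± 0.44, at a mean of 10.7 in PBS) fell, whereas RASSF6 at its far side rose (1.19 ± 0.17) and ANKRD17 at its near side rose slightly (0.22 ± 0.07, adjusted p = 0.0141). Beside the fibrinogen genes, PLRG1 rose slightly (0.29 ± 0.08), and LRAT, a low transcript, gave -0.54 ± 0.48 (adjusted p = 0.374). In the SERPINA cluster around SERPINA1, the genes SERPINA6 (-1.31 ± 0.14), SERPINA4 (-0.67 ± 0.13), SERPINA5 (-1.27 ± 0.09) and the adjacent PPP4R4 (-1.84 ± 0.13) fell and SERPINA10 rose (1.01 ± 0.08). SERPINA3, another acute-phase gene, had a mean of 0.805 in PBS and 7.38 in FWctl, too few counts for a firm fold. In the region of AHSG, the nearest gene, FETUB, gave -0.92 ± 0.40 (adjusted p = 0.0588), HRG, at a mean of 3.70 in PBS, rose (1.19 ± 0.47, adjusted p = 0.0333), and KNG1 (-0.90 ± 0.11) and EIF4A2 (-0.71 ± 0.09) fell. Near AMBP, ORM1 and ORM2 (1.35 ± 0.18) rose with it, while KIF12, which lies closer, fell (-0.89 ± 0.10). COL27A1, which lies between KIF12 and ORM1, gave -0.08 ± 0.11 (edgeR adjusted p = 0.596). Next to APOH, PRKCA fell (-1.09 ± 0.10). CEP112, which lies closer on the other side and had a mean of 5.70 in PBS, gave 0.26 ± 0.46 (edgeR adjusted p = 0.683). Beside TTR, DSG2 rose slightly (0.29 ± 0.08) and B4GALT6 gave 0.14 ± 0.11 (edgeR adjusted p = 0.300). Near RBP4 the overlapping gene FFAR4 gave 0.08 ± 0.24 (adjusted p = 0.817) and PDE6C 0.09 ± 0.40 (adjusted p = 0.883). FRA10AC1, which lies farther away, rose (0.51 ± 0.11). Values of ANKRD17, AFM, LRAT, the SERPINA genes other than SERPINA6, FETUB, HRG, KNG1, EIF4A2, COL27A1, CEP112, DSG2, B4GALT6, FFAR4 and PDE6C were named for their position, after they were seen.

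**Figure D4:**
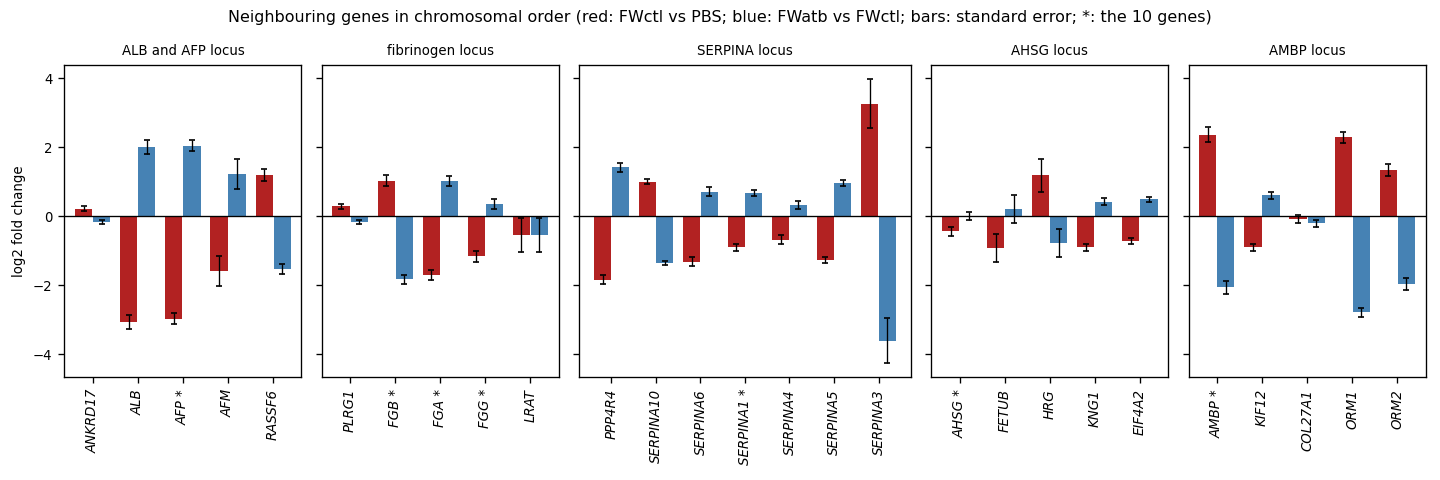
Log2 fold changes (vertical axis) with standard errors of the tested genes around 5 of the loci, in the order of their starts along the chromosome but not to scale; red bars are FWctl against PBS, blue bars FWatb against FWctl, and an asterisk marks the 10 genes. ALB and AFP fall and rise together, while FGB is opposite in sign to FGA and FGG.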

How the data were processed

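Total RNA of 22 Caco-2 samples was sequenced by the authors after ribosomal RNA depletion, with stranded, paired-end libraries. Per the labels and the methods, reads were trimmed with Trimmomatic 0.38, aligned to GRCh38 with HISAT2 2.1.0 and counted per gene with featureCounts of Subread 2.0.0. Whether counting used strand is not given in the sources used here; no exon of the 10 genes overlaps an exon of another gene in GENCODE 44. The deposited values are raw read counts for 61487 genes. The 10 genes, the other gene lists and the marker lists were chosen with earlier results of these data known.

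The 20373 genes counted more than 5 times in 3 or more of 21 libraries entered edgeR 4.0.16 (R 4.3.3) with TMM normalization and 1 quasi-likelihood model of the 4 groups without covariates. P-values were adjusted by Benjamini-Hochberg over all genes tested, with a threshold of 0.05 and, between the faecal waters, a log2 fold change beyond 1 in either direction, after the filter and thresholds of the study's methods. The standard error (SE) is the log2 fold change divided by the square root of F. A normalized count is the count divided by the TMM effective library size and multiplied by the mean effective size of the 21 libraries, so depth limits the precision of low genes such as AMBP. Levels per kilobase use merged GENCODE 44 exons. The share of ribosomal DNA transcripts was taken over 32 genes of the array on chromosome 21, and 0.5% split the libraries into 2 sets. The fit was tested on simulated counts first.

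All 10 genes are described. From each other list, up to 3 called genes with the largest rise and up to 3 with the largest fall in FWctl against PBS and in FWatb against FWctl are named, provided their normalized counts averaged 50 or more, and likeness is Pearson's r of log2(normalized count + 1). Genes named outside this rule are marked, and some that it names are not reported here. Per the methods, each mouse gave faeces before and during its antibiotic course, and both groups carry the same 7 replicate numbers, so equal numbers were taken as 1 mouse; the labels do not state it. Over all genes, deviations from the group means correlated by -0.003 to 0.097 within the 6 pairs. Alternatives were DESeq2 1.42.0 and its size factors, library size alone, other filters, other sample sets, the replicate number as a block, the library set as a covariate or as a restriction, and each library left out in turn. The rRNA-poor set alone was added after the data were seen. Figures were drawn with matplotlib 3.10.9.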

Additional observations from a re-analysis of the deposited data

Results flagged for a closer look

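1 of 40 sets of values (10 genes in 4 groups) held a library far from the others of its group by Dixon's gap criterion, where chance flags about 1 in 20, or 2.0 of 40. It was SERPINA1 in FWctl replicate 3, at a normalized count of 8883, whereas the other 5 FWctl libraries lay between 10780 and 11900. Without FWctl replicate 3, SERPINA1 remained lower in FWctl than in PBS in edgeR's test.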

How the results depend on the processing

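Of 880 member fold changes recomputed under alternatives, 786 kept their side of the threshold, and no called value changed sign. The uncalled values of TTR and RBP4 in FWctl against PBS, AFP in ATB against PBS and AHSG in FWatb against FWctl changed sign between settings. The count of genes called in FWctl against PBS stayed within 1.5 times the main one throughout. In FWatb against PBS the count of 7 became 4 with all 22 samples (FGB, TTR and AHSG lost), 4 in rRNA-rich libraries alone (FGA, TTR and AHSG lost) and 0 with an absolute log2 fold change above 1 required. In ATB against PBS the count of 3 became 0 with all 22 samples, 1 with library size alone, 5 without a filter on low counts, 1 with the library set as a covariate, 0 in rRNA-rich libraries alone and 0 with the fold change threshold. In FWatb against FWctl the count of 4 became 8 without a fold change threshold. Leaving out 1 library at a time gave counts of 8 in FWctl against PBS, 5 to 9 in FWatb against PBS, 0 to 6 in ATB against PBS and 3 to 4 in FWatb against FWctl. In ATB against PBS the count was 0 without PBS replicate 1 or 2 or ATB replicate 3 or 4, 1 without PBS replicate 3 or ATB replicate 1, and 6 without ATB replicate 2. The cause of these changes was not tested. With the replicate number as a block, FWatb against FWctl called 4 genes as before. In the comparisons with PBS, where numbers are only names, the block gave 5 calls in ATB against PBS, 9 in FWatb against PBS and 8 in FWctl against PBS.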
